A study of Homo sapiens with 9 samples.

Results

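The 42 genes described here encode enzymes and regulators that make cholesterol and fatty acids. They were taken by symbol from the deposited count table, where they are 42 of 25382 entries, and all 42 had enough reads to be tested among 14731 genes. RNA was sequenced from 501mel, an established human melanoma line, 24 h after the cells were lipofected with a DsiRNA, a synthetic RNA duplex that Dicer trims into a silencing guide. One group received DsiRNA 13.6 against the transcription factor gene TBX3, one received DsiRNA 13.8 against the same gene, and the control group received the non-targeting DsiRNA NC1, with 3 biological replicates in each of the 3 groups. All 9 libraries come from the same line and all cells were transfected, so the comparisons are between duplexes in 1 genetic background. The series concerns TBX3 downstream of the melanocortin receptor MC1R in pigment cells.

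Cholesterol synthesis joins acetyl-CoA units into mevalonate, then into isoprenoids and squalene, and closes squalene into the sterol ring, which a chain of oxidoreductases trims to cholesterol. Fatty acid synthesis draws on the same acetyl-CoA, and its products are desaturated, elongated and bound to coenzyme A before they enter membranes or stores. Both arms are known targets of the SREBP transcription factors, which SCAP escorts out of the endoplasmic reticulum when sterols are low and which the INSIG proteins hold back when sterols are high.

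Libraries held 38105026 to 52272147 counted reads. Levels are given as CPM, the reads of a gene per 1000000 reads of its library after TMM scaling. Differences are given as log2 fold changes from edgeR's quasi-likelihood fit, with an SE worked back from the F statistic of its test. A difference between the duplexes is 13.6 over 13.8. "Rose", "fell" and "changed" refer to a Benjamini-Hochberg adjusted p under 0.05 over all 14731 genes in that edgeR test. TBX3 itself measured 46.4, 41.0 and 39.4 CPM in the 13.6 libraries, 36.1, 33.7 and 36.2 CPM in the 13.8 libraries and 88.6, 83.8 and 84.02 CPM in the controls, so each knockdown library lay below each control. TBX3 fell by 1.02 ± 0.07 with 13.6 and by 1.27 ± 0.07 with 13.8 on the log2 scale. The melanocyte lineage markers MITF, SOX10, PMEL, MLANA, TYR and DCT were detected in every group. Single markers moved: MITF stood at -0.04 ± 0.11 with 13.6 and fell by 0.97 ± 0.11 with 13.8, and SOX10 rose by 0.32 ± 0.07 with 13.6 and fell by 0.35 ± 0.07 with 13.8. TYR rose by 1.09 ± 0.07 with 13.6 and 0.84 ± 0.07 with 13.8, MLANA fell by 0.20 ± 0.07 and 0.27 ± 0.07, DCT fell by 0.49 ± 0.10 with 13.6 and rose by 0.64 ± 0.10 with 13.8, and PMEL passed in neither. Fibroblast markers were scarce, at a summed 4.63 to 5.39 CPM in 13.6 libraries, 15.9 to 19.2 CPM in 13.8 libraries and 4.87 to 6.19 CPM in controls, with none of the 7 at 0 reads throughout a group. The 5 that could be tested all rose with 13.8. Of the 5 leukocyte markers only 2 could be tested. LYZ rose with 13.8, by 0.83 ± 0.27, and PTPRC did not pass. The 5 leukocyte markers summed to 1.28 to 1.89 CPM in 13.6 libraries, 1.69 to 2.20 CPM in 13.8 libraries and 1.04 to 1.42 CPM in controls. The part of all these markers in the results below was not tested, and in bulk RNA fewer cells of a type and less RNA per cell cannot be told apart.

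The genes of lipid synthesis moved in both directions with each duplex. With 13.6 against control 13 rose, 12 fell and 17 did not pass, so 25 of 42 changed, against 49.9% of all genes tested (24.9% rose and 25.0% fell). With 13.8 against control 14 rose, 13 fell and 15 did not pass, so 27 of 42 changed, against 55.5% of all genes tested (27.5% rose and 27.9% fell). The median log2 fold change of the 42 was -0.05 with 13.6 and -0.03 with 13.8, beside -0.01 and 0.01 over all genes tested. The median size of the change, whatever its sign, was 0.41 with 13.6, beside 0.31 over all genes, and 0.34 with 13.8, beside 0.35. Between the duplexes, 33 of 42 differed, with 14 higher and 19 lower in 13.6, against 61.1% of all genes tested (30.9% higher and 30.2% lower). When both duplexes were averaged and set against control, 15 rose, 13 fell and 14 did not pass, against 50.2% of all genes tested (23.3% higher and 26.9% lower). A call of this average does not mean that both duplexes moved the gene alike. INSIG1 was called higher and TM7SF2 and ACSL1 lower, although 13.6 and 13.8 moved each in opposite directions. ACSL5 and GPAM were called higher, although each passed with 13.6 and not with 13.8. All 6 knockdown libraries lay above all 3 controls for 4 of the 42 and below them for 6, while this held for 25.9% of all genes tested (13.2% above and 12.8% below). With 13.6 alone, the libraries did not overlap the controls for 13 genes above and 13 below, against 56.0% of all genes tested, and with 13.8 alone for 12 above and 13 below, against 59.1%. Between the duplexes 15 genes were separate above and 18 below, against 68.8%. The 4 above the controls in all 6 knockdown libraries were SQLE, SC5D, ELOVL1 and ACSL4, and the 6 below were FDPS, LSS, ACLY, AACS, FADS2 and ACSL3.

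**Figure D1:**
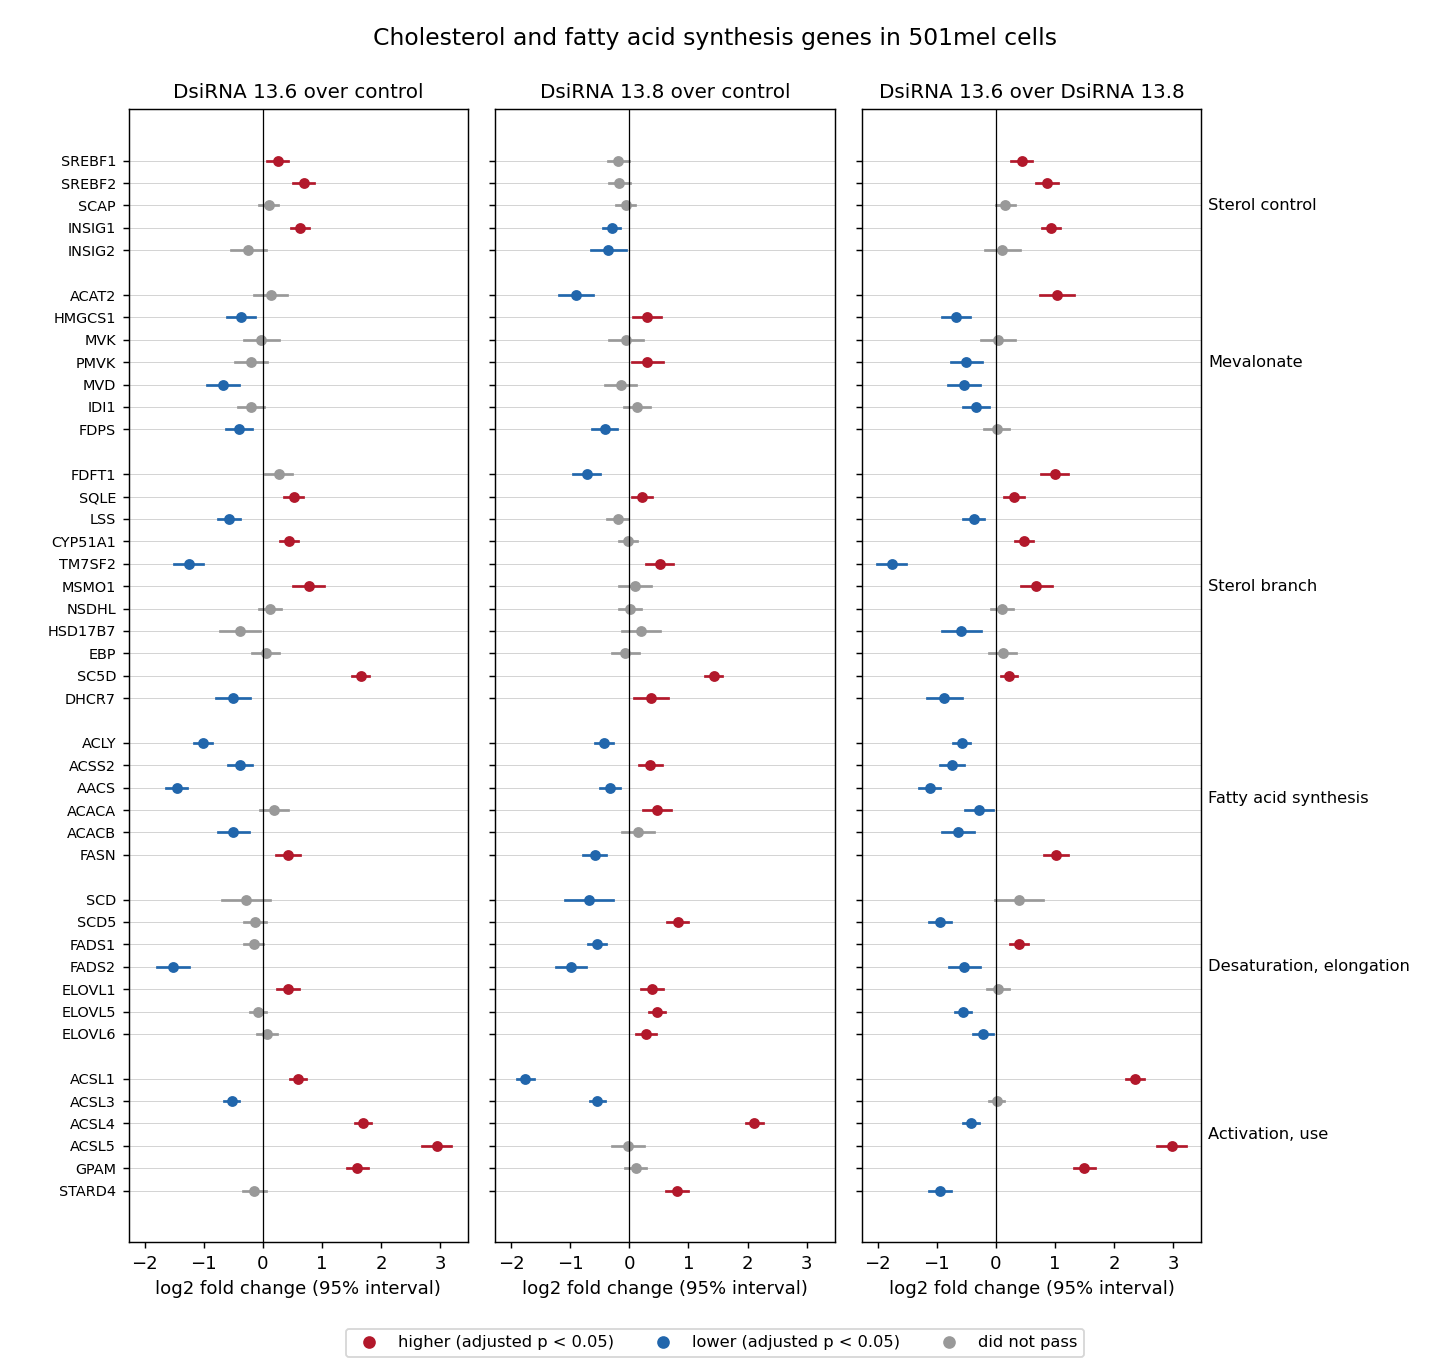
Log2 fold changes of the 42 genes with 95% intervals worked out from the edgeR test, grouped by role from top to bottom, for DsiRNA 13.6 over control, DsiRNA 13.8 over control and DsiRNA 13.6 over DsiRNA 13.8. Points to the right of 0 are higher in the first-named group, red points rose or were higher and blue points fell or were lower at an adjusted p under 0.05, and every role group has points on both sides of 0 in at least one of the panels.

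Among the regulators, SREBF2 and INSIG1 were higher with 13.6 than with 13.8. SREBF2 encodes the SREBP that drives cholesterol synthesis. Its level was 327, 330.4 and 359.8 CPM in the 13.6 libraries, 193, 177 and 189 CPM in the 13.8 libraries and 196, 242 and 192 CPM in the controls. All 3 of the 13.6 libraries were above the other 6, and SREBF2 rose by 0.69 ± 0.08 with 13.6 (adjusted p = 1.8e-05 by edgeR). With 13.8 it stood at -0.17 ± 0.08 (95% interval -0.35 to 0.01), with libraries that overlapped the controls, and it passed there without control replicate 3 (-0.23, adjusted p = 0.0240 by edgeR). INSIG1 retains SCAP and is itself an SREBP target. Its level was 44.9, 43.7 and 47.8 CPM with 13.6, 24.3, 22.8 and 24.6 CPM with 13.8 and 28.2, 29.1 and 31.0 CPM in controls. These 3 ranges did not overlap: INSIG1 rose by 0.63 ± 0.07 with 13.6 and fell by 0.30 ± 0.07 with 13.8, and the duplexes differed by 0.93 ± 0.07 (adjusted p = 1.1e-07 by edgeR).

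SREBF1 encodes the SREBPs that favour fatty acid genes. Its level was 76.5, 77.2 and 73.7 CPM with 13.6, 57.5, 57.3 and 53.1 CPM with 13.8 and 67.1, 69.4 and 54.3 CPM in controls. All 13.6 libraries were above all controls, and the 13.8 libraries overlapped the controls. It rose by 0.25 ± 0.08 with 13.6. That rise did not pass when control replicate 3 was left out (0.15, adjusted p = 0.0589 by edgeR), nor without 13.6 replicate 1 (0.25, adjusted p = 0.0586 by edgeR) or 2 (0.24, adjusted p = 0.0681 by edgeR), nor with scaling by library totals (0.22). With 13.8 SREBF1 stood at -0.18 ± 0.08, a value that passed without control replicate 3 (-0.29, adjusted p = 0.00110 by edgeR) and with the replicate block (-0.18, adjusted p = 0.0258 by edgeR). It was higher in 13.6 than in 13.8 by 0.44 ± 0.08. SCAP encodes the escort. Its level was 83.9, 85.5 and 88.1 CPM with 13.6, 80.5, 77.8 and 71.8 CPM with 13.8 and 80.6, 87.5 and 72.3 CPM in controls. Both duplexes overlapped the controls, and SCAP passed in neither comparison with them. INSIG2 encodes the second INSIG. Its level was 38.5, 27.9 and 44.6 CPM with 13.6, 36.6, 34.8 and 31.6 CPM with 13.8 and 47.4, 40.8 and 43.6 CPM in controls. Its 13.6 libraries spread across the range of the other groups, with a value of -0.25 ± 0.14 that passed without 13.6 replicate 3 (-0.41, adjusted p = 0.0214 by edgeR), and it fell by 0.36 ± 0.14 with 13.8. That fall did not pass without control replicate 1 (-0.30, adjusted p = 0.123 by edgeR) or 3 (-0.37, adjusted p = 0.0792), without 13.8 replicate 2 (-0.37, adjusted p = 0.0837) or 3 (-0.31, adjusted p = 0.122). Nor did it pass without 13.6 replicate 1 (-0.36, adjusted p = 0.0523), with no filter on low counts (-0.37) or when genes needed 50 reads on average (-0.33). Of the 5 regulators 3 rose and 0 fell with 13.6, beside 24.9% and 25.0% of all genes tested, with a median of 0.25. With 13.8, 0 rose and 2 fell, beside 27.5% and 27.9% of all genes tested, with a median of -0.18, and the difference between these counts was not tested.

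The promoters of 4 genes whose levels are given in full are shown because they carry the motifs through which SREBPs and their partner NF-Y are known to act. Each is the strand of the gene from 250 bases before to 50 bases after an annotated start, from RefSeq on GRCh38.p14. Where a gene had several annotated starts, the window with the most motif matches was shown. The windows were thus chosen for the motifs that they hold. Of the 42 genes 38 matched this table, all but ACAT2, FDFT1, SQLE and FASN. Capitals mark the sterol regulatory element core TCACNCCAC, the E-box CACGTG and the NF-Y box CCAAT, each searched on both strands, so that ATTGG is the NF-Y box read on the other strand.
SREBF2, chr22:41832855-41833154, plus strand: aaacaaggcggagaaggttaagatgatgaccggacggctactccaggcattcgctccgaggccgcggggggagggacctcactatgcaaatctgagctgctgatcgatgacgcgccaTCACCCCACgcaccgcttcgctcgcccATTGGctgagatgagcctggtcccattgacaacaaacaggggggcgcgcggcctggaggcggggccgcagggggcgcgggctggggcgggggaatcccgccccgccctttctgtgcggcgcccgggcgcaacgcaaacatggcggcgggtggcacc
ACSL1, chr4:184805504-184805803, minus strand: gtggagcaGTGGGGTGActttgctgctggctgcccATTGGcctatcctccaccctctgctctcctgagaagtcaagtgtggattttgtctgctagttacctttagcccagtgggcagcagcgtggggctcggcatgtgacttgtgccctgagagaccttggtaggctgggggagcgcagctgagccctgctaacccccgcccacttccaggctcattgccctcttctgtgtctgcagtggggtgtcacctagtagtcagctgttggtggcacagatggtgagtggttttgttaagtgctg
INSIG1, chr7:155297628-155297927, plus strand: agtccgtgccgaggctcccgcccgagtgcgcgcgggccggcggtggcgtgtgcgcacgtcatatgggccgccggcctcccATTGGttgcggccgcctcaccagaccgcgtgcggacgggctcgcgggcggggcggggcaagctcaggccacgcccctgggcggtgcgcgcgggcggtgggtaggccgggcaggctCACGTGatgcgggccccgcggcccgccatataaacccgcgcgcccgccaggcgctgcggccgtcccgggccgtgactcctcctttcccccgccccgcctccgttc
SC5D, chr11:121292521-121292820, plus strand: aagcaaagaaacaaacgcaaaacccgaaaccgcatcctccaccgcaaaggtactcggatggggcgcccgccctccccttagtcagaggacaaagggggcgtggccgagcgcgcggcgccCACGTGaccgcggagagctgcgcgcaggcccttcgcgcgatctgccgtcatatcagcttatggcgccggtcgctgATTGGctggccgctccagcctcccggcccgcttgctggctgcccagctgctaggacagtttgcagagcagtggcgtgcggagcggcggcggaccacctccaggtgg

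The window shown for SREBF2 holds the sterol element 133 bases before its start, with an NF-Y box 106 bases before that start. The window shown for ACSL1, a fatty acid activating enzyme described below, holds the element 242 bases before its start. It has an NF-Y box 215 bases before that start. INSIG1 and SC5D hold an E-box and an NF-Y box but no sterol element in these windows. Over the 38 genes the sterol element was in 2, SREBF2 and ACSL1, against 1.39% of the 27305 genes of the table. A gene was counted if any of its windows held the motif, so genes with more annotated starts had more windows to match. The 27305 genes were not limited to the 14731 tested here. The E-box was in 5 of 38, against 8.77% of genes, and the NF-Y box in 28 of 38, or 73.7%, against 39.7% of genes. The T-box element TCACACCT, on either strand, the kind of site that TBX3 binds, was in 0 of 38, against 1.21% of genes, which says only that these letters are not in these windows. SREBF2 and ACSL1, the carriers of the sterol element, both rose with 13.6, whereas ACSL1 fell and SREBF2 did not pass with 13.8. A link between the element and these changes was not tested. The 4 promoters were picked after these levels were known, and a match is a description of the letters, not of binding.

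In the mevalonate segment, 0 of 7 genes rose with 13.6, 3 fell and 4 did not pass (median -0.21), so 42.9% changed, beside 49.9% of all genes tested. With 13.8, 2 of 7 rose, 2 fell and 3 were short of the threshold (median -0.06), so 57.1% changed, beside 55.5% of all genes tested. HMGCS1 makes HMG-CoA. Its level was 33.6, 31.3 and 41.4 CPM with 13.6, 59.8, 52.9 and 56.8 CPM with 13.8 and 42.6, 52.8 and 42.1 CPM in controls. Its duplexes lay on opposite sides of the controls, at -0.37 ± 0.11 with 13.6 and 0.30 ± 0.11 with 13.8. They differed by -0.67 ± 0.11 (adjusted p = 1.6e-04 by edgeR). The difference between duplexes passed whichever library was left out, but the calls against control did not: the fall with 13.6 did not pass when control replicate 2 (-0.26) or 13.6 replicate 1 (-0.33) or 2 (-0.29) was left out, nor the rise with 13.8 when control replicate 1 (0.25) or 3 (0.24) or 13.8 replicate 1 (0.26) or 3 (0.29) was left out.

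ACAT2 encodes the cytosolic thiolase that opens the pathway. Its level was 41.3, 41.2 and 50.8 CPM with 13.6, 22.4, 18.9 and 23.6 CPM with 13.8 and 32.8, 46.9 and 41.9 CPM in controls, so the 13.8 libraries were the low ones. It fell by 0.90 ± 0.13 with 13.8 and stood at 0.13 ± 0.13 with 13.6. In the GENCODE 29 annotation 34.8% of the exonic bases of ACAT2 lie opposite exons of SOD2 and 12.5% opposite exons of TCP1. A further transcript, SOD2-OT1, lies opposite 45.8% of them, and AC114947.2 lies opposite 19.9% of the exonic bases of HMGCS1. SOD2-OT1 and AC114947.2 were not among the genes tested. The strand setting of the counting is not given in the sources used here, so reads of these genes may not be told apart. FDPS encodes the farnesyl diphosphate synthase. Its level was 98.8, 105 and 119 CPM with 13.6, 102, 104.1 and 114 CPM with 13.8 and 122, 143 and 162 CPM in controls. It fell with each duplex, by 0.40 ± 0.10 with 13.6 and by 0.42 ± 0.10 with 13.8, and 28.9% of its exonic bases lie opposite the transcript RUSC1-AS1. MVD, the decarboxylase of the segment, fell by 0.68 ± 0.12 with 13.6 and stood at -0.14 ± 0.12 with 13.8, a value of -0.28 that passed without control replicate 1 (adjusted p = 0.0343 by edgeR). PMVK, the second kinase, stood at -0.20 ± 0.12 with 13.6 and rose by 0.30 ± 0.12 with 13.8, a call lost when any 1 of 7 libraries was left out (0.23 to 0.30), with no filter on low counts (0.29) and in the fit of the 13.8 and control groups alone (0.31). IDI1, an isomerase, stood at -0.21 ± 0.10 with 13.6 and 0.12 ± 0.10 with 13.8. Its 13.6 value passed without control replicate 1 (-0.28, adjusted p = 0.0403 by edgeR), without 13.6 replicate 3 (-0.31, adjusted p = 0.0310) and with the replicate block (-0.21, adjusted p = 0.0318). MVK, the first kinase, stood at -0.02 ± 0.13 (95% interval -0.31 to 0.27) and -0.06 ± 0.13 (95% interval -0.35 to 0.23).

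In the sterol branch, SC5D stood apart as the gene that rose most with both duplexes. SC5D encodes the lathosterol desaturase late in the pathway. Its level was 56.4, 57.6 and 61.1 CPM with 13.6, 47.9, 51.0 and 50.8 CPM with 13.8 and 17.9, 18.8 and 18.8 CPM in controls. All 6 knockdown libraries were above all 3 controls. It rose 3.15-fold with 13.6 (1.66 ± 0.07, adjusted p = 1.1e-09 by edgeR) and 2.69-fold with 13.8 (1.43 ± 0.07, adjusted p = 1.9e-09 by edgeR). Averaged over both duplexes the rise was 1.54 ± 0.06, and 13.6 was higher than 13.8 by 0.23 ± 0.06.

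TM7SF2 encodes a sterol reductase of the middle of the branch. Its level was 7.03, 7.78 and 7.79 CPM with 13.6, 22.3, 26.4 and 28.2 CPM with 13.8 and 15.8, 17.9 and 20.3 CPM in controls, and no 2 of these ranges overlapped. It fell by 1.25 ± 0.11 with 13.6 and rose by 0.51 ± 0.11 with 13.8, which puts the duplexes apart by -1.76 ± 0.11 (adjusted p = 3.0e-08 by edgeR). LBR, a lamin B receptor with the same reductase activity and no member of the 42, stood at 0.18 ± 0.07 with 13.6 and fell by 1.58 ± 0.08 with 13.8. DHCR7 encodes the last reductase of the pathway. Its level was 15.5, 16.7 and 18.7 CPM with 13.6, 31.6, 29.1 and 32.7 CPM with 13.8 and 19.0, 30.0 and 23.4 CPM in controls. The 13.6 libraries were below all controls, and the 13.8 libraries overlapped the highest control. DHCR7 fell by 0.51 ± 0.14 with 13.6, a value of -0.32 without control replicate 2, and rose by 0.37 ± 0.13 with 13.8. The rise did not pass without control replicate 1 (0.22, adjusted p = 0.117 by edgeR) or 3 (0.35, adjusted p = 0.0740), without 13.8 replicate 1 (0.36, adjusted p = 0.0663) or 3 (0.33, adjusted p = 0.0943), or with no filter on low counts (0.36).

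Enzymes around squalene and lanosterol differed in direction. FDFT1 encodes the squalene synthase. Its level was 149, 159 and 172 CPM with 13.6, 86.8, 77.6 and 77.4 CPM with 13.8 and 111, 158 and 129.8 CPM in controls. The 13.8 libraries were below all others, and the 13.6 libraries overlapped the controls. It fell by 0.72 ± 0.11 with 13.8 and stood at 0.27 ± 0.11 with 13.6, just short of the threshold (adjusted p = 0.0504 by edgeR, 0.0404 by DESeq2). Without control replicate 2 that value was 0.41 (adjusted p = 0.00283 by edgeR), and 13.6 was higher than 13.8 by 0.99 ± 0.11. SQLE, the squalene epoxidase, rose by 0.52 ± 0.08 with 13.6 and by 0.22 ± 0.08 with 13.8, of which the rise with 13.8 did not pass when control replicate 1 (0.19), control replicate 3 (0.20) or 13.8 replicate 1 (0.16) was left out. LSS, which closes the ring to lanosterol, fell by 0.57 ± 0.08 with 13.6 and stood at -0.20 ± 0.08 with 13.8, a value that passed in 4 alternatives (-0.21 to -0.24). With 13.6 the enzyme before the ring closure rose and the ring-closing enzyme itself fell. CYP51A1 and MSMO1, which remove methyl groups from the ring, rose by 0.45 ± 0.07 and 0.78 ± 0.12 with 13.6 and stood at -0.03 ± 0.07 and 0.10 ± 0.12 with 13.8. NSDHL and EBP, which also work on the ring, passed in neither comparison with control. HSD17B7, a ketoreductase of the ring, stood at -0.39 ± 0.16 with 13.6 (adjusted p = 0.0541 by edgeR) and 0.20 ± 0.15 with 13.8. With 13.6 it passed under DESeq2 (-0.39, adjusted p = 0.0375), library totals (-0.42), no filter (-0.38), the replicate block (-0.38, adjusted p = 0.0426 by edgeR) and without control replicate 1 (-0.57, adjusted p = 0.00180 by edgeR). With 13.8 it passed without control replicate 2 (0.38, adjusted p = 0.0390 by edgeR). Of the 11 genes of the branch, 4 rose, 3 fell and 4 did not pass with 13.6 (median 0.12), beside 49.9% of all genes changed. With 13.8, 4 rose, 1 fell and 6 did not pass (median 0.10), beside 55.5%.

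**Figure D2:**
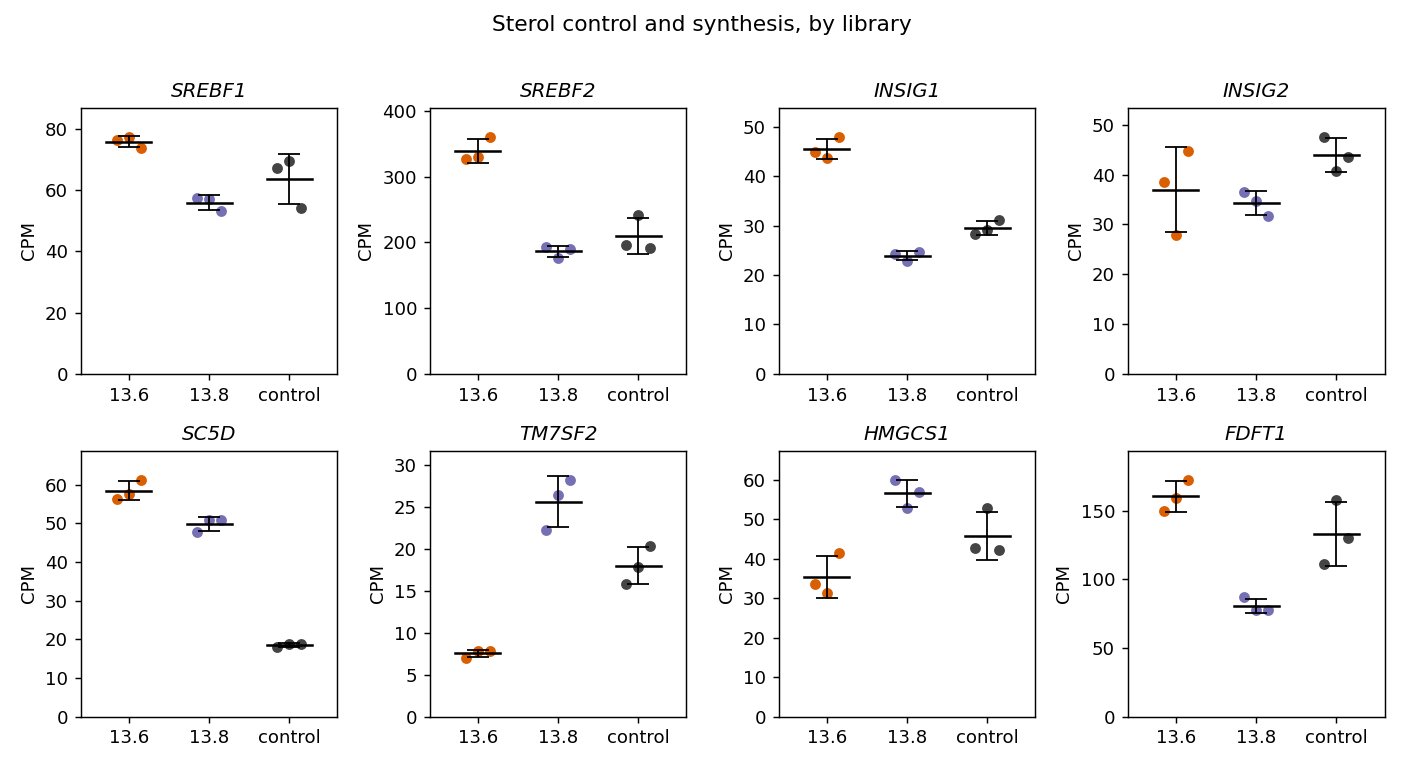
CPM in each library for 8 genes of sterol control and synthesis in DsiRNA 13.6, DsiRNA 13.8 and control cells; points are libraries, long bars are means and whiskers the SD over 3 libraries, and each vertical axis starts at 0. SC5D is high with both duplexes, INSIG1 and TM7SF2 have 3 separate ranges in opposite orders, and SREBF2 is high with 13.6 while its 13.8 libraries overlap the controls.

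Among the enzymes that supply acetyl-CoA and its relatives, ACLY and AACS fell with both duplexes, and further with 13.6. ACLY makes acetyl-CoA from citrate. Its level was 105, 99.8 and 111 CPM with 13.6, 167, 154 and 151 CPM with 13.8 and 204, 231 and 201 CPM in controls. These ranges did not overlap, and ACLY fell by 1.01 ± 0.07 with 13.6 (adjusted p = 1.2e-07 by edgeR) and by 0.43 ± 0.07 with 13.8 (adjusted p = 1.6e-04 by edgeR). AACS activates acetoacetate for lipid synthesis. Its level was 10.47, 12.01 and 11.3 CPM with 13.6, 25.6, 23.7 and 24.5 CPM with 13.8 and 32.1, 32.4 and 28.5 CPM in controls. It showed the same order as ACLY, with a fall by 1.46 ± 0.08 with 13.6 and by 0.33 ± 0.08 with 13.8, and the duplexes differed by -1.12 ± 0.08 (adjusted p = 9.9e-08 by edgeR). SLC25A1, the mitochondrial citrate carrier upstream of ACLY and no member of the 42, fell by 1.70 ± 0.10 and 0.40 ± 0.10 in the same comparisons. ACSS2 makes acetyl-CoA from acetate. Its level was 19.98, 22.2 and 24.9 CPM with 13.6, 38.0, 35.8 and 38.7 CPM with 13.8 and 26.3, 31.8 and 30.1 CPM in controls. Unlike ACLY and AACS it lay on opposite sides of the controls, at -0.39 ± 0.09 with 13.6 and 0.35 ± 0.09 with 13.8, both past the threshold.

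FASN encodes the multi-domain fatty acid synthase. Its level was 349.9, 356 and 339 CPM with 13.6, 191, 165 and 159 CPM with 13.8 and 273, 283 and 219 CPM in controls. It rose by 0.43 ± 0.09 with 13.6 and fell by 0.59 ± 0.09 with 13.8, with no overlap between any 2 groups, and the duplexes differed by 1.02 ± 0.09 (adjusted p = 8.7e-07 by edgeR). FASN and ACLY, the end and the start of this route, thus moved in opposite directions with 13.6. The acetyl-CoA carboxylases ACACA and ACACB, which stand between them, were at 0.19 ± 0.11 and -0.50 ± 0.12 with 13.6 and at 0.47 ± 0.11 and 0.15 ± 0.12 with 13.8, where ACACB fell with 13.6 and ACACA rose with 13.8. Of these 6 genes 1 rose, 4 fell and 1 did not pass with 13.6, and 2 rose, 3 fell and 1 did not pass with 13.8, beside 49.9% and 55.5% of all genes changed.

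Of the desaturases and elongases, 1 of 7 rose with 13.6, 1 fell and 5 did not pass, beside 49.9% of all genes changed. With 13.8, 4 rose and 3 fell, SCD among them with a call that depends on the processing, beside 55.5% of all genes changed. FADS2 opens the synthesis of polyunsaturated fatty acids. Its level was 4.68, 6.10 and 4.75 CPM with 13.6, 8.09, 7.17 and 7.26 CPM with 13.8 and 13.3, 16.1 and 15.2 CPM in controls. Every knockdown library was below every control, and FADS2 fell by 1.52 ± 0.12 with 13.6 (adjusted p = 4.3e-07 by edgeR) and by 0.99 ± 0.12 with 13.8 (adjusted p = 1.1e-05 by edgeR). Its neighbour and partner desaturase FADS1 measured 93.9, 89.3 and 103.6 CPM with 13.6, 76.4, 70.4 and 71.9 CPM with 13.8 and 106, 114 and 99.5 CPM in controls. The 13.8 libraries were below all others, with a fall by 0.55 ± 0.07, and FADS1 stood at -0.15 ± 0.07 with 13.6. That value passed with library totals (-0.19), without control replicate 3 (-0.20) and without 13.6 replicate 3 (-0.22). SCD, which makes monounsaturated fatty acids, spread widely within each group, at 499, 424 and 597 CPM with 13.6, 485, 343 and 330.2 CPM with 13.8 and 626, 749 and 479 CPM in controls. The 13.8 libraries of SCD overlapped the controls, and its fall by 0.68 ± 0.18 did not pass with the replicate block (adjusted p = 0.0543 by edgeR) or with no filter on low counts (adjusted p = 0.0599 by edgeR).

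SCD5 encodes the second human stearoyl-CoA desaturase. Its level was 13.1, 13.6 and 13.1 CPM with 13.6, 27.1, 25.1 and 24.5 CPM with 13.8 and 14.4, 16.0 and 13.2 CPM in controls. Here the 13.8 libraries stood above all others, with a rise of 0.82 ± 0.08 (adjusted p = 2.8e-06 by edgeR), while 13.6 was at -0.13 ± 0.09. With 13.8 one desaturase gene rose and the more abundant SCD fell. ELOVL5 elongates polyunsaturated fatty acids. Its level was 145, 148 and 156 CPM with 13.6, 218, 219 and 224 CPM with 13.8 and 148, 170.4 and 158 CPM in controls. The 13.8 libraries were above all others. It rose by 0.47 ± 0.06 with 13.8 and stood at -0.09 ± 0.06 with 13.6. ELOVL1, which extends very long chains, rose by 0.42 ± 0.09 with 13.6 and 0.38 ± 0.09 with 13.8, and ELOVL6, which extends palmitate, stood at 0.07 ± 0.08 with 13.6 and rose by 0.28 ± 0.08 with 13.8.

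**Figure D3:**
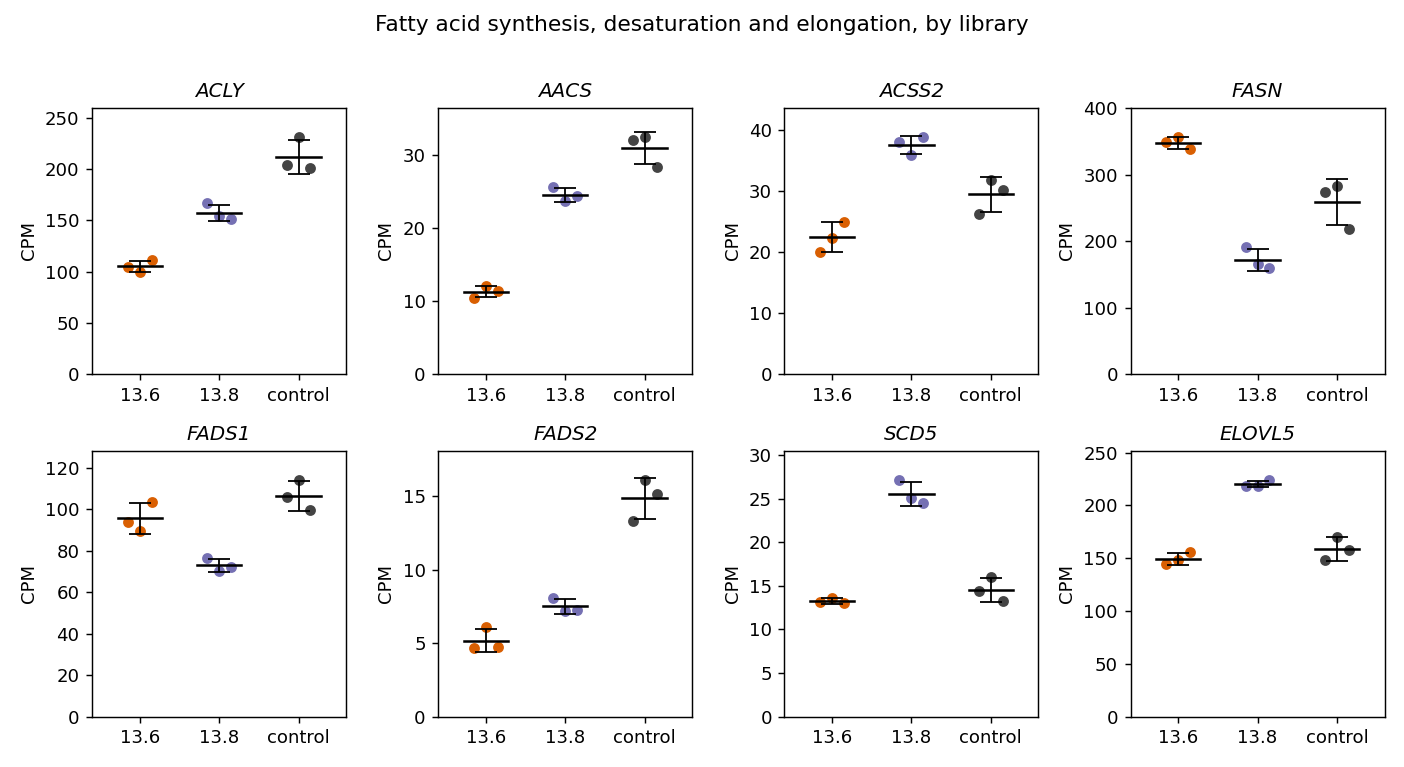
CPM in each library for 8 genes of fatty acid synthesis, desaturation and elongation in DsiRNA 13.6, DsiRNA 13.8 and control cells; points are libraries, long bars are means and whiskers the SD over 3 libraries, and each vertical axis starts at 0. ACLY, AACS and FADS2 are below the controls with both duplexes, FASN and ACSS2 lie on opposite sides of the controls, and SCD5 and ELOVL5 are high with 13.8.

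The acyl-CoA synthetases that activate long-chain fatty acids gave the largest change of the 42 genes in each comparison, ACSL5 with 13.6, ACSL4 with 13.8 and ACSL5 between the duplexes. ACSL4 prefers arachidonate and related chains. Its level was 67.5, 62.8 and 61.6 CPM with 13.6, 84.8, 86.3 and 86.0 CPM with 13.8 and 18.9, 20.9 and 19.6 CPM in controls. It rose 3.24-fold with 13.6 (1.69 ± 0.07, adjusted p = 9.8e-10 by edgeR) and 4.34-fold with 13.8 (2.12 ± 0.07, adjusted p = 1.6e-10 by edgeR), and all 6 knockdown libraries were above all 3 controls. ACSL3 encodes a synthetase of the endoplasmic reticulum and lipid droplets. Its level was 546, 520.2 and 539 CPM with 13.6, 563, 511 and 517 CPM with 13.8 and 757, 792 and 766 CPM in controls. It fell by nearly the same amount with each duplex, 0.53 ± 0.06 with 13.6 and 0.54 ± 0.06 with 13.8, and the duplexes differed by 0.01 ± 0.06 (95% interval -0.12 to 0.14).

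ACSL1 and ACSL5 separated the duplexes instead. ACSL1 encodes a synthetase abundant in liver and fat. Its level was 369, 355 and 335 CPM with 13.6, 73.4, 68.0 and 65.4 CPM with 13.8 and 244, 237 and 219 CPM in controls. It rose by 0.60 ± 0.07 with 13.6 and fell by 1.76 ± 0.07 with 13.8 (adjusted p = 6.0e-10 by edgeR), a difference of 2.36 ± 0.07 between duplexes with no overlap between groups. ACSL5 encodes a synthetase best known from the intestine. Its level was 19.5, 20.5 and 21.6 CPM with 13.6, 2.99, 2.45 and 2.42 CPM with 13.8 and 2.75, 2.76 and 2.49 CPM in controls. It rose 7.70-fold with 13.6 (2.95 ± 0.11, adjusted p = 9.8e-10 by edgeR) and was at -0.03 ± 0.12 (95% interval -0.30 to 0.24) with 13.8, with 1 of its 13.8 libraries above the control range and 2 below it. With 13.6, then, 3 of the 4 synthetase genes were higher and ACSL3 lower, and with 13.8 ACSL4 was higher, ACSL1 and ACSL3 lower and ACSL5 did not pass.

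GPAM encodes the mitochondrial acyltransferase that starts glycerolipid synthesis from these acyl-CoAs. Its level was 121, 116 and 117 CPM with 13.6, 44.3, 39.8 and 41.8 CPM with 13.8 and 35.7, 44.7 and 36.3 CPM in controls. Its 13.6 libraries were above all others, with a 3.04-fold rise (1.60 ± 0.08, adjusted p = 1.1e-08 by edgeR), while 13.8 was at 0.11 ± 0.08, or 0.22 without control replicate 2, where it passed (adjusted p = 0.0186 by edgeR). STARD4 encodes a carrier of cholesterol between membranes. Its level was 11.98, 11.6 and 12.9 CPM with 13.6, 21.0, 24.4 and 24.9 CPM with 13.8 and 13.2, 13.1 and 14.0 CPM in controls. It was the mirror case, rising by 0.80 ± 0.09 with 13.8 (adjusted p = 4.2e-06 by edgeR) and standing at -0.15 ± 0.09 with 13.6.

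**Figure D4:**
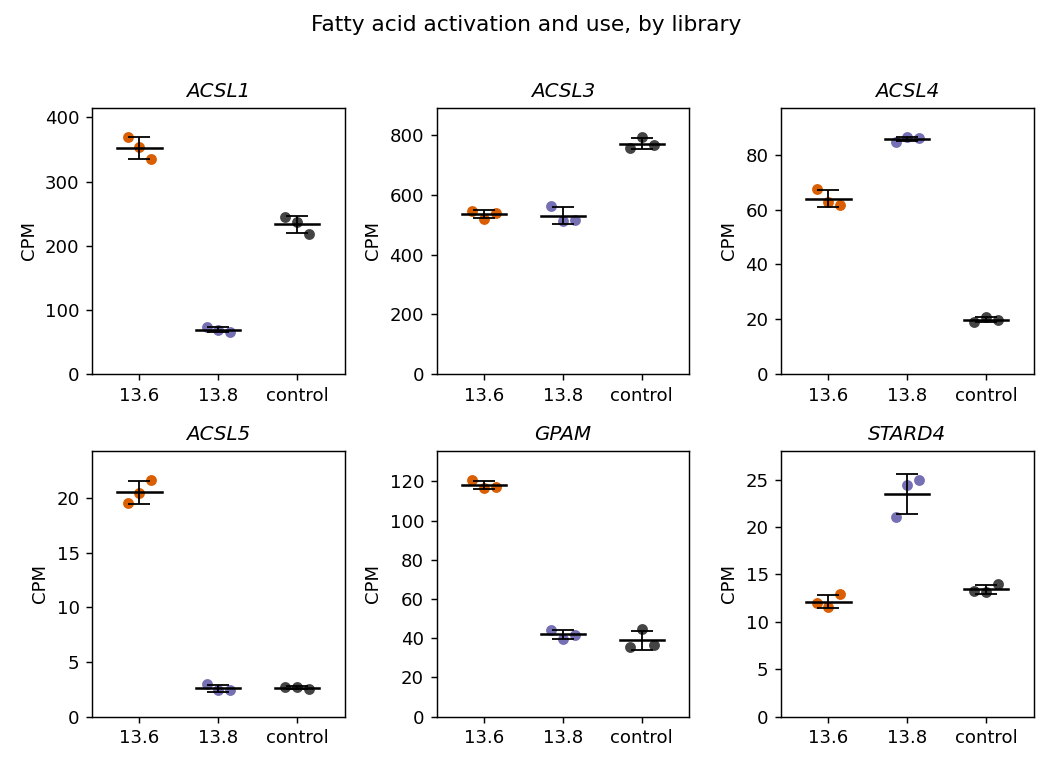
CPM in each library for the 4 acyl-CoA synthetase genes, GPAM and STARD4 in DsiRNA 13.6, DsiRNA 13.8 and control cells; points are libraries, long bars are means and whiskers the SD over 3 libraries, and each vertical axis starts at 0. ACSL4 is high with both duplexes, ACSL3 low with both, ACSL5 and GPAM high with 13.6, STARD4 high with 13.8, and ACSL1 lies on opposite sides of the controls.

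With 13.6, changes of at least 2-fold were found for 8 of the 42, namely the rises of SC5D, ACSL4, ACSL5 and GPAM and the falls of TM7SF2, ACLY, AACS and FADS2, against 8.10% of all genes tested. With 13.8 they were 3 of the 42, SC5D and ACSL4 higher and ACSL1 lower, against 11.5% of all genes tested. Between the duplexes they were 7 of the 42, with ACAT2, FASN, ACSL1, ACSL5 and GPAM higher and TM7SF2 and AACS lower in 13.6, against 14.0% of all genes tested.

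Per kilobase of exonic length in GENCODE 29, the most abundant of the 42 in control cells were ACSL3 at 135.9, SCD at 115 and FDPS at 86.4 CPM per kb, followed by ACLY at 48.4 and ELOVL5 at 45.6. The least abundant was ACSL5 at 0.686 CPM per kb, so that its rise with 13.6, to 5.29 CPM per kb, was a rise of the gene lowest among the 42 in controls. Among the synthetases the order of levels per kb in 13.6 cells was ACSL3 at 94.2, ACSL1 at 66.2, ACSL4 at 11.97 and ACSL5 at 5.29. It was in 13.8 cells ACSL3 at 93.4, ACSL4 at 16.0, ACSL1 at 12.9 and ACSL5 at 0.674, and in control cells it was ACSL3 at 135.9, ACSL1 at 43.8, ACSL4 at 3.70 and ACSL5 at 0.686. ACSL1 and ACSL4 thus exchanged places in 13.8 cells, though there their levels per kb were near each other and were not tested against each other.

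Genes that work around the 42 were grouped by function. Among 20 tested genes of other steps of synthesis, 6 rose, 4 fell and 10 did not pass with 13.6, and 5 rose, 4 fell and 11 did not pass with 13.8. In this and the next lists the counts stand beside 49.9% of all genes changed with 13.6 and 55.5% with 13.8. Among 14 tested genes of SREBP processing, sterol-driven degradation and the LXR sterol receptors, 3 rose, 5 fell and 6 did not pass with 13.6, and 3 rose, 3 fell and 8 did not pass with 13.8. MBTPS2, the second protease that frees SREBPs from the membrane, fell by 1.34 ± 0.07 with 13.6 and by 0.60 ± 0.06 with 13.8, whereas the ubiquitin ligase RNF139 rose by 0.62 ± 0.06 and 0.56 ± 0.06. The sterol receptor NR1H3 fell by 1.10 ± 0.12 with 13.6, and ERLIN2, which takes part in protein degradation at the endoplasmic reticulum, fell by 0.85 ± 0.06 with 13.8.

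Of 12 genes of sterol uptake and storage, 4 rose, 3 fell and 5 did not pass with 13.6, and 4 rose, 2 fell and 6 did not pass with 13.8. VLDLR, a lipoprotein receptor, rose by 0.48 ± 0.11 and 1.05 ± 0.11, and LIPA, the lysosomal lipase that frees cholesterol, by 0.77 ± 0.08 and 0.73 ± 0.08. LRP8, a related receptor, rose by 0.84 ± 0.10 and 0.29 ± 0.10, and NPC1, which exports cholesterol from lysosomes, stood at 0.13 ± 0.08 with 13.6 and fell by 0.52 ± 0.08 with 13.8.

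A last description concerns short words in the 3' untranslated regions, where small RNA guides can pair with transcripts other than their target. The sequences of the duplexes were not at hand, so neither word below was matched to a guide of 13.6 or 13.8. The words GCTCTGT and AACTGTC came from an earlier search of these same libraries, so the counts below support nothing by themselves, and pairing was not tested. Of the 42 genes, 8 hold GCTCTGT in their longest annotated region, against 18.3% of 17911 genes. Their median log2 fold change with 13.6 was -0.25, with 2 higher, 4 lower and 2 not past the test. It was 0.06 in the 34 others, of which 11 were higher, 8 lower and 15 not past it. With 13.8 the 8 carriers had 4 higher, 2 lower and 2 not past the test, with a median of 0.21. The 34 others then had 10 higher, 11 lower and 13 not past it, with a median of -0.06. AACTGTC is held by 4 of the 42, MSMO1, FASN, ACSL1 and GPAM, against 9.70% of genes. Their median with 13.8 was -0.25, with 0 higher, 2 lower and 2 not past the test. It was -0.03 in the 38 others, of which 14 were higher, 11 lower and 13 not past it. With 13.6 all 4 carriers of AACTGTC were higher, with a median of 0.69. The 38 others then had 9 higher, 12 lower and 17 not past the test, with a median of -0.14. Of all genes tested, 24.9% rose and 25.0% fell with 13.6, and 27.5% rose and 27.9% fell with 13.8. Sites in the carriers with the largest falls are shown with 8 bases on each side, as DNA letters of the transcript from GENCODE 29 with the word in capitals.
FADS2, chromosome 11, 1 of 2 sites: ctccaaagGCTCTGTtatcagct
AACS, chromosome 12: cccattttGCTCTGTgaaggtgc
ACSL1, chromosome 4, first site: ataagaacAACTGTCctggctgg
ACSL1, chromosome 4, second site: gcctgaatAACTGTCtactttat
FASN, chromosome 17: tttactgtAACTGTCagtgtaca

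The carriers shown were picked by their falls, so their low values say nothing about the words. FADS2 and AACS, the carriers of GCTCTGT shown, had the lowest values of the 42 with 13.6, at -1.52 ± 0.12 and -1.46 ± 0.08. Both also fell with 13.8, by 0.99 ± 0.12 and 0.33 ± 0.08. ACSL1 had the lowest value of the 42 with 13.8, at -1.76 ± 0.07, and FASN fell by 0.59 ± 0.09. GPAM and CYP51A1 hold GCTCTGT and rose with 13.6, and TM7SF2 and ACLY hold neither word and fell at least 2-fold with 13.6. SC5D and ACSL4, which rose with both duplexes, hold neither word. These examples too were picked with their values known and say nothing about the words, whose part was not tested.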

How the data were processed

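Per the labels' protocols, RNA was taken with Trizol 24 h after lipofection and libraries were made with a directional kit. The authors deposited raw read counts per gene symbol. The submitters' processing notes name STAR, HTSeq, cutadapt, FastQC and DESeq2 with build hg19. Neither gene annotation nor strandedness of counting is stated in the sources at hand. Of 25398 entries, 16 that repeated a symbol with the same counts were left out, and 28 named like dates held 0.2% of reads. Counts were tested with edgeR 4.0.16 in R 4.3.3: TMM scaling, filterByExpr with a minimum count of 10, 1 fit of the 3 groups over all 9 libraries, and quasi-likelihood tests of 4 contrasts with Benjamini-Hochberg adjustment over 14731 genes. Totals of 38105026 to 52272147 reads set the precision. The SE is the size of the log2 fold change divided by the square root of the F statistic, and the 95% intervals were built from this SE. The 16 alternatives were DESeq2 1.42.0, DESeq2 size factors, library totals, no filter, a mean of at least 50 reads, a replicate block, only the groups compared, and each of 9 libraries left out. The 42 genes and all lists were chosen with earlier results of these data known. Values in every library are given for TBX3, the 5 regulators and the 8 genes with the smallest adjusted p in each of 13.6 against control, 13.8 against control and 13.6 against 13.8, beside others chosen after their values were seen; other genes are given by log2 fold change. From the lists of other genes, up to 3 with the smallest adjusted p per comparison are named, and those of the same step as one of the 42; a few are not reported here. Promoters are from RefSeq on GRCh38.p14, and lengths and 3' untranslated regions from GENCODE 29.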

Additional observations from a re-analysis of the deposited data

Results flagged for a closer look

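For 7 of the 42 genes the comparisons with control gave a rise with one duplex and a fall with the other, although both duplexes lowered TBX3. That is 16.7% of the 42, beside 9.01% of all genes tested. The 7 were picked by these opposite calls, so the differences between the duplexes below are a description. The HMGCS1 calls against control held in 13 of 16 alternatives with 13.6 and in 12 of 16 with 13.8, and the DHCR7 call with 13.8 in 11 of 16. INSIG1, FASN and ACSL1 were higher in 13.6 than in 13.8, by 0.93 ± 0.07, 1.02 ± 0.09 and 2.36 ± 0.07 on the log2 scale. HMGCS1, TM7SF2, DHCR7 and ACSS2 were lower in 13.6 than in 13.8, at -0.67 ± 0.11, -1.76 ± 0.11, -0.87 ± 0.13 and -0.74 ± 0.09. ACSL1 holds AACTGTC in its 3' untranslated region, as does FASN, and HMGCS1 and DHCR7 hold GCTCTGT, whereas INSIG1, TM7SF2 and ACSS2 hold neither word; the part of these words was not tested. TBX3 itself was higher in 13.6 than in 13.8, by 0.26 ± 0.07, and the part of this difference was not tested.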

How the results depend on the processing

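The number of the 42 genes called stayed within 1.5 times its reported value under every alternative run, and no called gene changed sign. Leaving out 1 library at a time gave 23 to 28 calls with 13.6 against control, 23 to 28 with 13.8 against control, 23 to 28 for the mean of both and 30 to 34 between the duplexes. Calls that passed under all alternatives were 23 of 25, 21 of 27, 20 of 28 and 30 of 33 in the same order. The fit with the replicate number as a block called 28, 27, 27 and 34 genes. Same-numbered libraries had correlations of -0.18 to 0.19 between their deviations, and not every library correlated best with its own number, so the numbers were not taken as pairs. Averaged over both duplexes, CYP51A1 was 0.14 without control replicate 1, against 0.21 with it, and between the duplexes ACACA was -0.19 without 13.8 replicate 1, against -0.29 with it; neither passed then. With 3 libraries a group in 1 cell line at 1 time, p-values measure the spread between these cultures.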

Other observations

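Of 13 tested genes of glycerolipid synthesis and fatty acid oxidation, 1 rose, 8 fell and 4 did not pass with 13.6, with a median log2 fold change of -0.25, and 2 rose, 6 fell and 5 did not pass with 13.8, with a median of -0.18. Of all genes tested, 25.0% fell with 13.6 and 27.9% with 13.8, and the list was not tested against them. ACADM and ACADVL, acyl-CoA dehydrogenases of mitochondrial oxidation, fell by 1.36 ± 0.07 and 1.12 ± 0.08 with 13.6 and stood at 0.07 ± 0.06 and -0.18 ± 0.08 with 13.8. LPIN1, a phosphatidate phosphatase, fell by 1.01 ± 0.09 with 13.6 and by 0.25 ± 0.09 with 13.8. CPT2, which returns acyl groups to coenzyme A inside mitochondria, fell by 0.40 ± 0.07 with 13.6 and 0.65 ± 0.07 with 13.8. DGAT2, which makes triglycerides, measured 0.703, 1.06 and 0.858 CPM with 13.6, 7.36, 9.74 and 8.29 CPM with 13.8 and 1.77, 1.30 and 1.42 CPM in controls, and thus lay on opposite sides of the controls, at -0.78 ± 0.21 with 13.6 and 2.49 ± 0.17 with 13.8. The nuclear receptor gene PPARD fell by 0.21 ± 0.06 with 13.6 and by 0.96 ± 0.06 with 13.8.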
